A study of Arabidopsis thaliana with 18 samples.

Results

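The transcripts described here were those raised in Arabidopsis roots by mannitol and still raised in roots 1 day after the mannitol was removed. They were chosen from the measured values. A probe set (the unit of an array that measures 1 transcript) was a member when its root mean under stress exceeded its mock root mean by at least 0.8 on the log2 scale, and its day 11 root mean did so too. By this rule 232 of 22746 probe sets were members, after QQS, AT5G28520 and AT2G16005, which passed both thresholds, had been left out. Of the members, 103 had 1 gene in the annotation used, 9 had several genes and 120 had none, so names are given for the 103 only.

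Leaves and roots of wild-type Columbia-0 plants in hydroponic culture were profiled on 18 Affymetrix ATH1 arrays, 3 biological replicates for each of 6 groups. In each organ these were mock plants labelled day 10, plants labelled day 10 that had received 0.3 M mannitol for 3 h in the light (called osmotic), and plants labelled day 11 from the osmotic treatment, taken here as those returned to basal medium for 1 day. No day 11 mock plants were among the samples, so recovery, a day of age and the move between media cannot be told apart. Per the labels' protocols the plants of all groups, mock included, were 30 days old, which differs from the day labels. Whole organs were sampled, and a change in the share of a cell type and a change of RNA per cell cannot be told apart in them.

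Mannitol draws water out of root cells without being a major nutrient, and plants answer with abscisic acid signalling, protective proteins and changes of the cell wall. Many such transcripts fall again soon after water returns. Roots also hold standing defences and barriers: class III peroxidases that cross-link lignin and other wall polymers, dirigent proteins that guide lignan and lignin coupling, glucosidases of endoplasmic reticulum bodies, and enzymes that methylate, glycosylate or export small molecules. Members of all these families were among the transcripts described here.

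The organ labels matched the markers: the summed level of 4 leaf markers was 14.43 to 14.93 (log2) on leaf arrays and 6.74 to 7.59 on root arrays. The sum of 4 root markers was 13.14 to 13.72 on root arrays and 6.03 to 6.37 on leaf arrays, and it was lower on the osmotic root arrays (13.14 to 13.26) than on the mock (13.56 to 13.72) and day 11 root arrays (13.51 to 13.58). Its part in the results was not tested. Correlations between arrays of 1 group were 0.9867 to 0.9947. Mock root replicate 3 had the highest of the 3 mock root values in 132 members (56.9%), against 31.9% of all probe sets. Osmotic root replicate 2 was the highest of its group in 145 members (62.5%), against 46.2% of all probe sets. Without mock root replicate 3 the rule found 278 probe sets, 220 of the 232 among them.

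Both root differences were used to choose the members and are given as descriptions, with no test. The median member was 1.92 above mock in osmotic roots (log2 difference, quartiles 1.26 and 2.81, highest 6.29) and 1.22 above mock in day 11 roots (quartiles 0.94 and 1.60, highest 4.32). Over the whole array 5.54% of probe sets passed the first threshold, 1.76% the second and 1.03% both. The 3 day 11 root arrays all lay above the 3 mock root arrays in 218 members, as they did in 15.9% of all probe sets.

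The members differed in how much of the rise was left at day 11. On the log2 scale the median member kept 67.3% of it, from 16.2% to 308%. In 84 members day 11 roots lay at least 1 below osmotic roots, in 85 they lay below by less than 1, and in 63 they lay above, 16 of these by at least 1. The 3 day 11 arrays were all below the 3 osmotic arrays in 114 members (15.8% of all probe sets) and all above in 14 (18.6% of all probe sets). The plot of both root differences shows that the tallest rises under mannitol were mostly not the tallest at day 11.

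**Figure D1:**
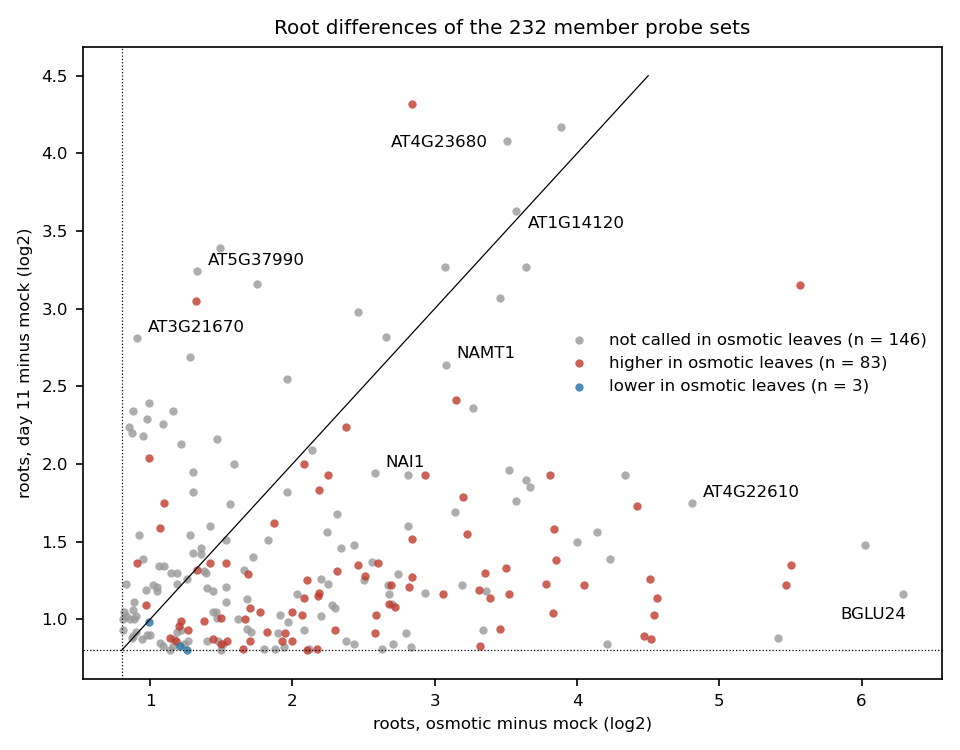
Each point is 1 of the 232 members, with the difference between mean osmotic and mean mock roots on the horizontal axis and between mean day 11 and mean mock roots on the vertical axis (log2, 3 arrays a group). Dotted lines mark the threshold of 0.8, points on the solid line kept the whole rise, and colour gives the result of the leaf comparison: 83 members were higher in osmotic leaves, 3 lower and 146 neither.

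Several members stayed at or near the level reached under stress. AT1G14120, of the oxygenase family that uses iron and 2-oxoglutarate, read 5.84, 5.90 and 7.08 in mock roots, 9.87, 10.37 and 9.30 in osmotic roots, and 9.50, 9.97 and 10.24 in day 11 roots. The osmotic and day 11 arrays overlapped and all lay above mock, 11.9-fold and 12.3-fold by the means. AT4G23680, of the latex-protein and Bet v 1-like family of small lipid-binding proteins, read 5.80, 5.73 and 7.02, then 9.28, 10.65 and 9.14, then 9.56, 10.92 and 10.32. Its mean differences from mock were 3.51 and 4.08. In both genes mock root replicate 3 was more than 1 above the other mock arrays.

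NAMT1, a methyltransferase of nicotinate, read 4.67, 4.83 and 4.68 in mock roots, 7.88, 8.29 and 7.25 in osmotic roots, and 6.83, 7.65 and 7.63 at day 11. Here the mock arrays were tight, and both later groups stood clear of them by 3.08 and 2.64. AT1G72140, of the nitrate and peptide transporter family, stood 3.64 and 3.27 above its mock mean. The efflux carriers AT5G44050 and AT5G38030, of the MATE family, stood 2.84 and 1.53 above mock under stress and 1.52 and 1.51 above it at day 11. AT3G46700, a UDP-glycosyltransferase, was 2.24 and 1.56 above mock, and AT4G28940, of the nucleoside phosphorylase family, 1.56 and 1.74. AT2G48090 (2.31 and 1.68), AT4G02360 (1.87 and 1.62) and AT2G47950 (3.52 and 1.96) also ranked among the 16 named members with the largest smaller one of both differences.

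**Figure D2:**
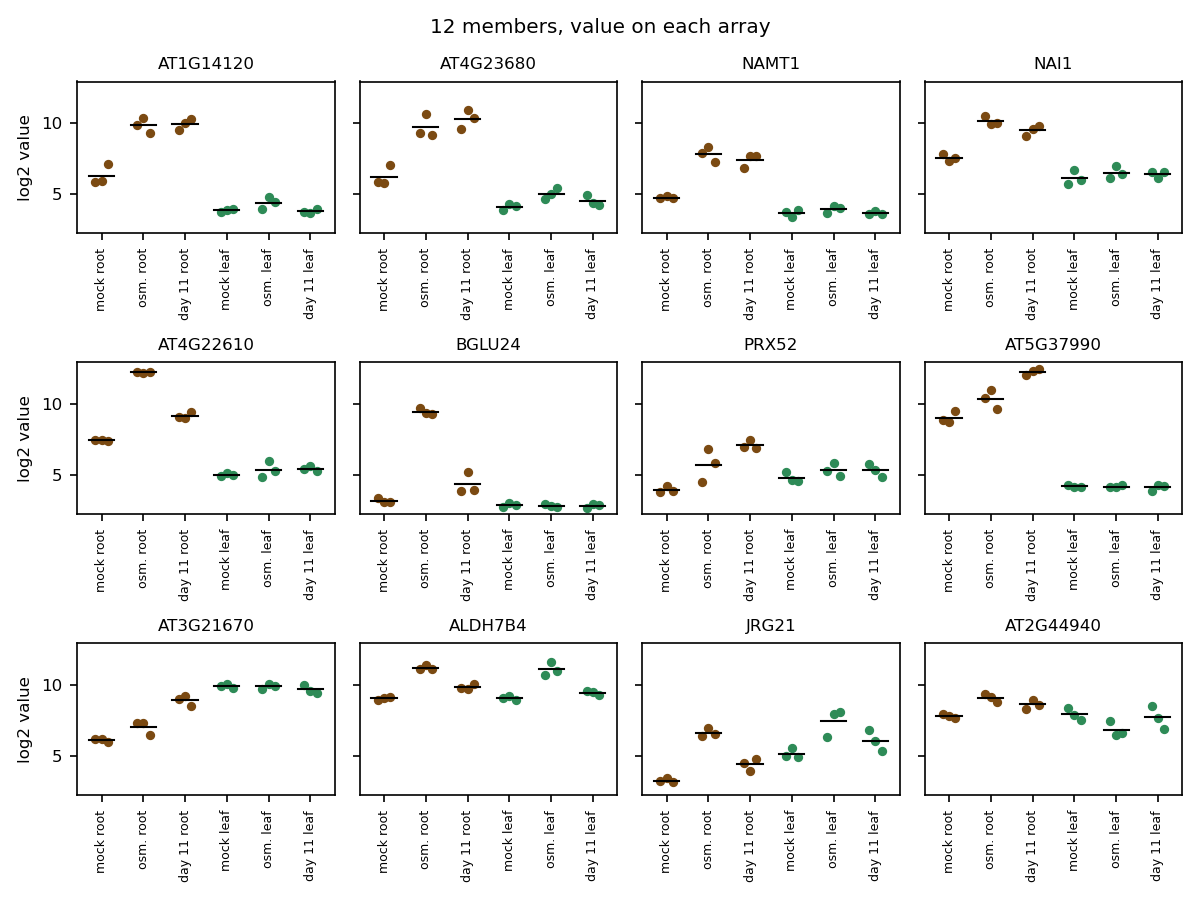
Log2 values of 12 members on every array, roots in brown and leaves in green, with 3 arrays a group as points and the group mean as a line. AT1G14120, AT4G23680 and NAMT1 stayed near the osmotic level at day 11, AT4G22610 and BGLU24 had come most of the way down, and PRX52, AT5G37990 and AT3G21670 stood highest at day 11.

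A smaller set was higher after recovery than under stress. AT5G37990, of a plant family of S-adenosylmethionine-dependent methyltransferases, read 8.87, 8.69 and 9.47 in mock roots, 10.43, 11.00 and 9.60 in osmotic roots, and 12.03, 12.30 and 12.43 in day 11 roots. Its day 11 arrays lay above every osmotic array, and the mean was 9.47-fold that of mock. AT3G21670, a nitrate transporter of the same family as AT1G72140, read 6.17, 6.16 and 5.97, then 7.31, 7.28 and 6.45, then 9.00, 9.23 and 8.49. It kept 308% of its osmotic difference, the largest share among the members. TPS-CIN, a terpene synthase that makes cineole in roots, read 4.28, 4.67 and 4.76, then 6.10, 6.05 and 5.42, then 7.21, 7.01 and 7.57. In all 3 genes the groups stood in the order mock, osmotic, day 11 with no overlap.

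Lipid-binding genes of the Bet v 1-like family were found beside one another in this set. AT3G26460 read 5.45, 5.47 and 6.11 in mock roots, 7.29, 8.30 and 5.92 in osmotic roots, and 8.64, 9.41 and 9.15 at day 11. Its neighbour AT3G26450 stood 0.98 above mock under stress and 2.29 at day 11. AT4G23670, next to AT4G23680, stood 0.88 and 2.34 above mock. In AT3G26450, AT3G26460 and AT4G23670 osmotic root replicate 3 lay within the range of the mock arrays, so the osmotic rise rested on the other two arrays, whereas no day 11 array did. The dirigent gene AT4G11190 (0.85 and 2.24) had the same overlap, from osmotic replicate 3 at 8.62 against mock values up to 8.94. AT2G18360, of the alpha/beta hydrolase family, stood 0.87 and 2.20 above mock.

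Other members were named for the largest fall from stress to day 11, and their rises under stress were large. That they stopped short of the mock level was set by the rule, which asked for at least 0.8 at day 11. BGLU24, a beta-glucosidase, read 3.37, 3.05 and 3.04 in mock roots, 9.70, 9.36 and 9.28 in osmotic roots, and 3.87, 5.17 and 3.90 in day 11 roots. The osmotic mean was 78.4-fold mock and the day 11 mean 2.24-fold. Its mock values lay below 4.354, the lower quartile of all values on the arrays, where no detection call was among the values used, so its fold may understate the true one. Day 11 replicates 1 and 3 lay below that quartile too, and without replicate 2 the day 11 difference was 0.73, under the threshold of the rule. AT4G22610, of the lipid-transfer protein family, read 7.43, 7.45 and 7.37, then 12.27, 12.17 and 12.24, then 9.05, 9.03 and 9.42. The 3 groups were tight and far apart, and 36.4% of the rise was left. AT5G19110, of the aspartyl protease family, went from 7.13, 6.73 and 6.79 to 11.56, 11.45 and 11.31, and read 8.06, 8.12 and 7.90 at day 11.

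Further members of this kind, AT1G68620, AT2G15780, AT3G10930, AT3G17110 and AR781, stood 3.46 to 4.54 above mock under stress and 0.94 to 1.56 at day 11. Of these, AT1G68620 is of the carboxylesterase family, AT2G15780 of the cupredoxin family and AT3G10930 of a family of small signalling peptides related to IDA. In AT1G68620 mock root replicate 3 read 5.93, above day 11 replicate 1 at 5.61, so those groups overlapped. In AT2G15780 they did not, with mock values up to 4.48 and day 11 values from 5.52. AT3G17110 kept 1.03 of its 4.54.

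Of the class III peroxidases, 8 were members among the 55 whose gene had a probe set of its own. The family was looked up after the members were known, so its count is a description. Over the whole array 1.03% of probe sets passed both thresholds. PRX52, a peroxidase of lignin formation, read 3.76, 4.21 and 3.86 in mock roots, 4.49, 6.78 and 5.81 in osmotic roots, and 6.92, 7.48 and 6.89 at day 11. The osmotic arrays spread widely, and the day 11 arrays were all above them. AT5G06730 read 6.16, 5.67 and 7.01, then 8.67, 10.43 and 8.94, then 9.35, 9.68 and 9.61, a level kept in full. AT4G36430 (1.47 and 2.16 above mock) and AT5G14130 (1.95 above mock at day 11) were higher at day 11 than under stress, while AT1G68850 (2.12 and 0.81), AT4G08780 (1.70 and 1.07) and AT5G39580 (2.20 and 1.02) were lower.

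For AT5G64120 the values did not separate. Its mock roots read 6.12, 5.63 and 7.95, its osmotic roots 6.89, 8.33 and 8.64, and its day 11 roots 8.45, 6.92 and 8.23. Mock root replicate 3 lay inside both other groups. The same array, at 10.16, equalled or passed all but 1 of the day 11 values of AT5G39580 (10.16, 9.67 and 10.18).

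Other peroxidases took other courses. Of the 47 non-members, 7 were higher and 9 lower in osmotic roots (limma, adjusted p threshold 0.05), with a median difference of 0.00. Over all probe sets 10.6% were higher and 13.7% lower. At day 11, 4 of the 47 were higher and 0 lower, where 3.65% and 4.01% of all probe sets were. The rule had taken the members out on the same arrays, so these counts are descriptions. AT3G03670 stood at -1.59 from mock under stress and -0.33 at day 11. AT5G19880, which is no member, stood 3.08 above mock under stress and 0.03 at day 11. AT1G49570, also no member, stood 0.56 above mock under stress and 1.29 at day 11.

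**Figure D3:**
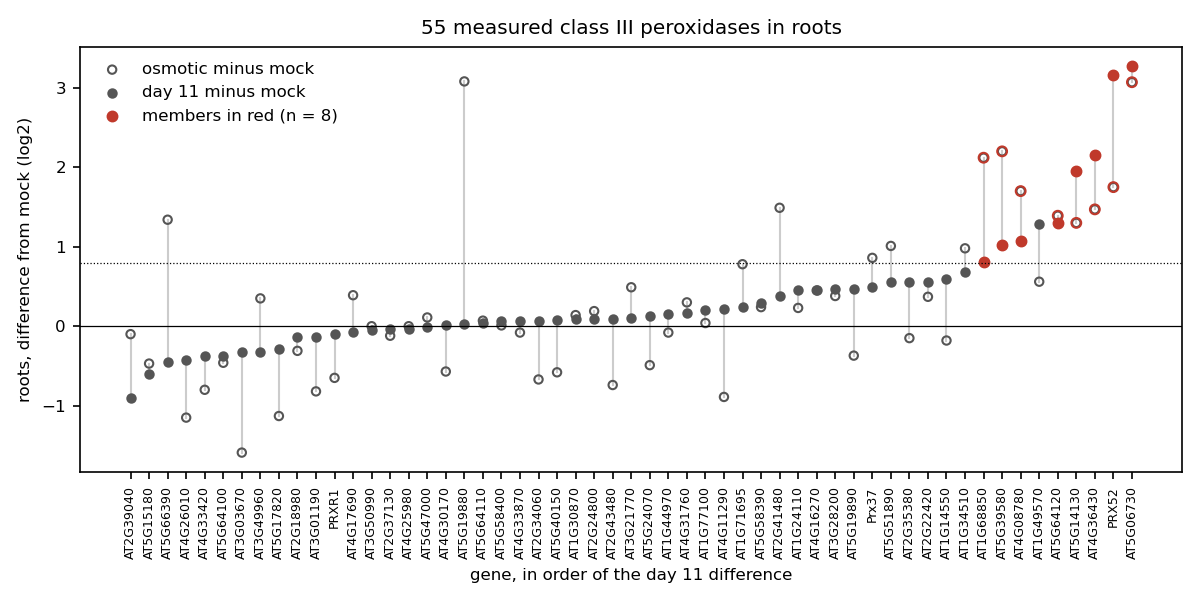
Root differences from mock (log2, difference of means of 3 arrays) for the 55 measured class III peroxidases, in order of the day 11 difference. Open circles are osmotic minus mock, filled circles day 11 minus mock, and the 8 members are in red at the right, all above the dotted line at 0.8 by both measures.

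Other enzymes of phenolic and wall metabolism were chosen after their values were seen. CCR2, a cinnamoyl-CoA reductase of lignin synthesis, read 6.86, 6.93 and 7.13 in mock roots, 9.25, 9.91 and 9.30 under stress, and 7.98, 8.39 and 8.40 at day 11. XTH20, a xyloglucan endotransglucosylase that remodels walls, read 8.04, 8.18 and 8.05, then 9.42, 9.74 and 9.00, then 9.67, 10.29 and 9.78. Neither gene had overlap between mock and the later groups. Of 15 measured dirigent genes, AT4G11190 and AT1G58170 (1.68 and 0.94) were members, and of 22 measured berberine bridge enzyme-like oxidases, AT4G20860 (1.50 and 1.01) and AT5G44400 (1.36 and 1.42).

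Of the endoplasmic reticulum body list, 8 genes were measured and 2 were members, BGLU24 and NAI1. These bodies store beta-glucosidases, and NAI1 is the transcription factor needed for forming them. NAI1 read 7.77, 7.31 and 7.54 in mock roots, 10.46, 9.93 and 9.97 in osmotic roots, and 9.04, 9.59 and 9.80 at day 11. It kept 75.0% of its rise, against 18.4% for BGLU24. Of the 6 other genes, 2 were higher in osmotic roots and 2 at day 11, none lower (limma, adjusted p threshold 0.05, which 10.6% of all probe sets passed as higher and 13.7% as lower in osmotic roots, and 3.65% and 4.01% at day 11). Such counts of other listed genes leave out the genes that the rule took on the same arrays, so they are descriptions. The day 11 rises were those of the jacalin lectins JAL22 (2.94, adjusted p = 0.00040, limma) and JAL33 (1.21, adjusted p = 0.023, limma), and PYK10, the chief glucosidase of root bodies, stood 0.58 above mock without passing (adjusted p = 0.19, limma).

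In all, 3 members came from the lists of aldehyde and glutathione enzymes. ALDH7B4, an aldehyde dehydrogenase that removes reactive aldehydes, was the member among 4 measured genes of its list. It read 8.93, 9.07 and 9.15 in mock roots, 11.10, 11.40 and 11.15 under stress, and 9.76, 9.73 and 10.09 at day 11. Of the 3 other genes of that list, ALDH6B2 (-0.62) and ALDH10A8 (-0.39) fell in osmotic roots, and 0 passed at day 11 (limma, adjusted p threshold 0.05). Of 8 measured glutathione transferases, which couple glutathione to reactive compounds, GSTU25 (2.71 and 0.84) and GSTU18 (0.83 and 1.23) were members. Day 11 and mock arrays overlapped in GSTU25, where mock root replicate 3 read 6.05 and day 11 replicate 2 read 5.59. Of the 6 other transferases, 2 rose and 3 fell in osmotic roots, and 1 rose (GSTU20, 1.10) and 1 fell (GSTU22, -0.92) at day 11.

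Of 20 genes on the dehydration and abscisic acid list, 6 could be measured under their own name, and these 6 were not among the members. Of them, 4 rose in osmotic roots and 0 passed in either direction at day 11 by limma (1 higher and 1 lower at an unadjusted p under 0.05). LEA4-5, of the late embryogenesis abundant proteins, stood 4.51 above mock under stress and 0.05 at day 11. Of the 3 touch-inducible genes measured, 3 rose in osmotic roots (median 2.26) and 0 at day 11 (median 0.22, and 0 at an unadjusted p under 0.05, limma), and their summed level was 7.12 to 7.70 in mock roots, 9.23 to 10.15 in osmotic roots and 7.37 to 7.86 in day 11 roots. The part of handling in the members' osmotic values was not tested. The measured low-oxygen gene, AT5G10040, read 3.42 to 3.64 on all arrays, below the lower quartile, where a lack of change cannot be told from a lack of signal.

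Jasmonate oxidases, dioxygenases that inactivate the hormone by hydroxylation, were looked up after the members were known. All 4 were measured, and JRG21 and AT5G05600 were members. JRG21 read 3.21, 3.39 and 3.12 in mock roots, 6.38, 6.94 and 6.56 in osmotic roots, and 4.47, 3.90 and 4.77 at day 11. AT5G05600 read 6.49, 6.48 and 6.66, then 9.83, 10.41 and 9.90, then 7.96, 7.56 and 8.09. Both came down by about the same amount, 2.25 and 2.18, and stayed clear of the mock arrays. Of the other two genes, AT2G38240 stood 3.80 above mock under stress and 0.35 at day 11, and AT3G11180 0.65 and -0.06.

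In mock plants the members included transcripts higher in roots and transcripts higher in leaves. The rule had used the mock root arrays, so the counts that follow are descriptions. The matching shares over all probe sets are not given here. The mock root mean exceeded the mock leaf mean in 129 of 232, by at least 1 in 87, and fell short of it by at least 1 in 68. In mock leaves 58 members had a mean below the lower quartile of all values, against 20 in mock roots. The plastid-encoded psbJ and psbL, subunits of photosystem II, and rpl32, a plastid ribosomal protein chosen here after its values were seen, stood 0.86 to 1.28 above mock in osmotic roots and 1.00 to 1.54 at day 11. Of the 4 nuclear leaf markers in roots, RCA fell (-1.03) and PSAE-1 rose (1.04) under stress, and none changed at day 11.

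The leaf arrays were not used by the rule, so they allowed a test. Under mannitol 83 members (35.8%) were higher in osmotic than in mock leaves and 3 (1.29%) were lower, where 8.62% of all probe sets were higher and 12.0% lower (limma, adjusted p threshold 0.05, 3 arrays a group). The median leaf difference of the members was 0.39, from -1.08 to 3.34, and the other 146 did not pass. At day 11 only 7 members (3.02%) were higher than mock and 0 lower, where 0.721% and 0.369% of all probe sets were. At an unadjusted p under 0.05 these counts were 48 and 7 of the 232 members, and 1604 and 1714 of all 22746 probe sets. Against osmotic leaves, day 11 leaves were lower in 51 members and higher in 3, where 7.96% and 9.13% of all probe sets were. Both comparisons with osmotic leaves share its 3 arrays. The summed level of the 3 touch-inducible genes was 8.12 to 8.40 in mock leaves, 8.96 to 9.98 in osmotic leaves and 9.50 to 10.15 in day 11 leaves, and its part in these counts was not tested. The count of 7 at day 11 was 30 with array weights and 3 without mock leaf replicate 3. Without mock leaf replicate 2 the 3 lower members under mannitol became 1, and without osmotic leaf replicate 2 the 3 members higher at day 11 than under mannitol became 1.

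Counts of leaf rises differed between the members by their course in roots. Of the 84 members at least 1 lower at day 11 than under stress in roots, 45 (53.6%) rose in osmotic leaves. Of the 85 that were lower by less than 1, 31 (36.5%) rose, and of the 63 that were higher at day 11 than under stress, 7 (11.1%) rose, near the 8.62% of all probe sets. The 3 classes were made after the values were seen, and the difference between these shares was not tested. By the rule, members at least 1 lower at day 11 had osmotic root rises well above 0.8, which the other members need not have had. The size of the osmotic rise and the course after it cannot be told apart in these shares.

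AT4G02360 showed the largest leaf rise of a named member. It read 4.96, 4.41 and 4.90 in mock leaves, 6.79, 8.94 and 7.52 in osmotic leaves, and 4.40, 5.03 and 4.67 in day 11 leaves. The osmotic difference was 2.99 ± 0.38 (SE, limma adjusted p = 3.2e-05), and at day 11 the leaf arrays overlapped with mock, although in roots 86.5% of the rise was left. ALDH7B4 read 9.04, 9.19 and 8.90, then 10.72, 11.62 and 10.96, then 9.56, 9.51 and 9.26. Its leaf rise of 2.06 ± 0.17 (SE, limma adjusted p = 5e-07) stood beside a difference of 2.17 in roots. The day 11 leaf difference of 0.40 ± 0.17 did not pass (limma adjusted p = 0.29).

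Both jasmonate oxidases rose in osmotic leaves, JRG21 by 2.30 ± 0.39 and AT5G05600 by 2.27 ± 0.25 (SE, limma adjusted p = 0.00043 and 9.3e-06). ZW9 (2.07), AT3G17110 (2.02) and GRX480 (2.05), a glutaredoxin that binds TGA transcription factors, rose by a similar amount. AT5G44050, the MATE carrier, rose by 1.52 in osmotic leaves, while its day 11 leaf values of 6.01, 5.81 and 5.79 lay below the mock values of 6.05, 6.34 and 6.15, a difference that did not pass (limma adjusted p = 0.65). AR781 also passed under mannitol (1.01, limma adjusted p = 0.025) but did not without osmotic leaf replicate 3 (adjusted p = 0.15). AT4G08780 was the peroxidase member that rose in osmotic leaves (0.89 ± 0.29, limma adjusted p = 0.038), and it did not pass without osmotic leaf replicate 2 (adjusted p = 0.16).

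Of the 7 members still higher in day 11 leaves, 4 had a gene name. AT3G10930, the IDA-related peptide, read 7.91, 7.69 and 7.54 in mock leaves, 8.88, 9.51 and 9.65 in osmotic leaves, and 9.24, 9.61 and 8.90 at day 11. It rose by 1.63 ± 0.22 and 1.54 ± 0.22 (SE, limma adjusted p = 5.6e-05 and 0.0018), with no overlap with mock. LUP5, a triterpene synthase, had a mock leaf mean of 6.64 ± 0.32 (SD, n = 3) and read 7.31, 7.64 and 7.52 in osmotic and 7.70, 7.73 and 7.54 in day 11 leaves, a day 11 rise of 1.02 ± 0.21 (adjusted p = 0.021, limma). AT3G50900 (1.10, adjusted p = 0.032) and AT4G20860 (1.09, adjusted p = 0.031), by the same limma fit, also passed. These last 3 lost the call when single arrays were left out, with adjusted p-values of up to 0.1 without mock leaf replicate 3 (LUP5, AT4G20860) and 0.096 without mock leaf replicate 2 (AT3G50900).

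**Figure D4:**
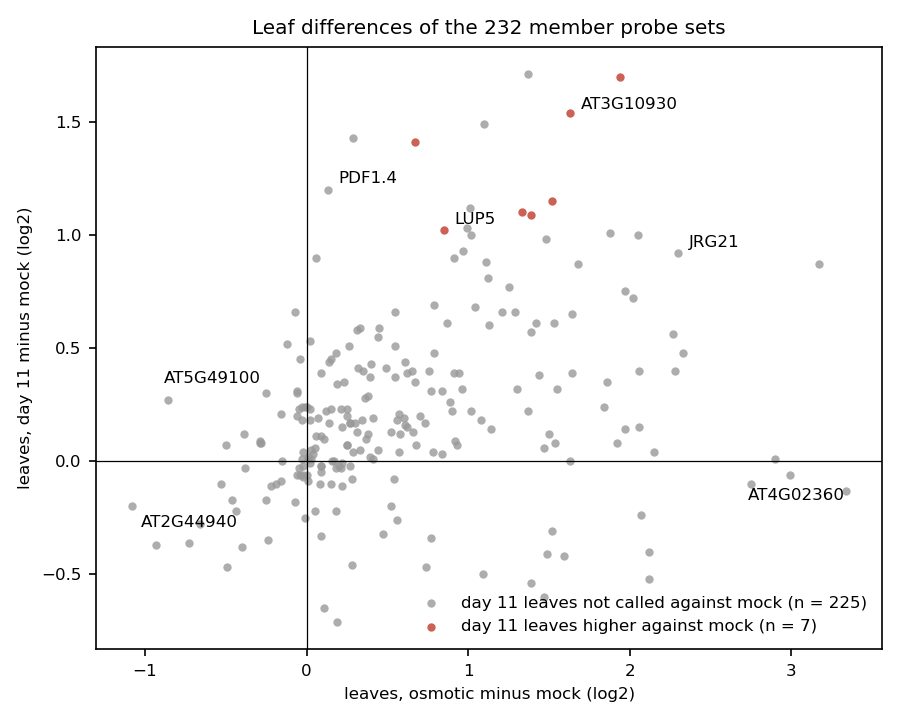
Leaf differences from mock of the 232 members (log2, difference of means of 3 arrays), osmotic on the horizontal and day 11 on the vertical axis. Red points are the 7 members higher in day 11 leaves by the limma fit. Members far to the right differed on the vertical axis: AT4G02360 lay at -0.06 and JRG21 at 0.92, neither of them called at day 11.

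Only 3 members fell in osmotic leaves. AT2G44940, of the ERF transcription factor family, read 8.36, 7.89 and 7.50 in mock leaves and 7.44, 6.47 and 6.60 in osmotic leaves, a fall of 1.08 ± 0.32 against a root difference of 1.26. The limma adjusted p was 0.023, and 0.12 without osmotic leaf replicate 2. AT5G49100 read 6.84, 7.64 and 6.87, then 6.17, 6.08 and 6.52, a difference of -0.86 ± 0.22 (limma adjusted p = 0.0097, and 0.069 without mock leaf replicate 2). AT1G04800, a glycine-rich protein, read 9.18, 9.20 and 9.18, then 8.33, 8.46 and 8.80, a difference of -0.66 ± 0.17 (limma adjusted p = 0.0089). The organ difference was not tested in these genes, since the rule had used the root arrays.

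The day 11 step in leaves was upward in PDF1.4, a defensin, AT3G61400 and AT5G49100. PDF1.4, which was chosen after its values were seen, read 5.26, 5.57 and 5.86 in mock leaves, 5.21, 5.19 and 6.70 in osmotic leaves, and 7.20, 6.11 and 6.99 at day 11. Its step from osmotic to day 11 was 1.07 ± 0.34 (SE, limma adjusted p = 0.037), which became 0.19 when osmotic leaf replicate 2 was left out. The step of AT3G61400 was 0.64 ± 0.20 (limma adjusted p = 0.033, and 0.13 without day 11 leaf replicate 3), and that of AT5G49100 was 1.13 ± 0.22 (limma adjusted p = 0.0018).

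Some strong root risers moved little in leaves. AT3G46700, AT5G59540, GAT1_2.1 and GSTU25 had the smallest leaf differences under mannitol (0.03 or less in size) among the 40 named members with the largest root difference. AT5G59540, of the 2-oxoglutarate dioxygenase family, was the bright one in leaves: it read 9.34, 9.15 and 9.33 in mock and 9.48, 9.35 and 8.95 in osmotic leaves, against 4.75, 4.38 and 4.89 in mock and 6.75, 8.69 and 8.16 in osmotic roots. AT3G21670 was likewise bright and level in leaves, at 9.89, 10.04 and 9.81 in mock and 9.74, 10.04 and 9.94 in osmotic leaves. BGLU24 read 2.68 to 2.99 on all 9 leaf arrays, and AT5G37990 read 3.87 to 4.26, below the lower quartile. GSTU25 also lay below it in mock leaves (3.31 to 3.50) and in osmotic leaves (3.36 to 3.48). In 43 members all 3 leaf group means lay below that quartile, where a lack of change cannot be told from a lack of signal.

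Gene order, which the rule did not use, placed 8 of the 102 members with a locus tag in 4 adjacent pairs. Among all measured genes there were 5882 adjacent pairs. The pairs were AT3G26450 with AT3G26460, AT4G23670 with AT4G23680, AT4G29690 with AT4G29700, and psbJ with psbL. AT4G29690 and AT4G29700, of the alkaline phosphatase-like family, stood 2.50 and 1.69 above mock in osmotic roots and 1.25 and 1.29 at day 11. In leaves AT4G29700 rose under mannitol (1.47 ± 0.28, SE, limma adjusted p = 0.001) and AT4G29690 did not pass (0.61 ± 0.26, limma adjusted p = 0.11). The latter passed without osmotic leaf replicate 1 (adjusted p = 0.0009). Neighbours of 1 family can share probes, and whether each probe set read only its own gene was not tested.

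The threshold cut through a continuous range. Just inside it lay AT3G50900, AT1G70810, AT2G44940 and AT1G68850, with day 11 differences of 0.80 to 0.81. Just outside lay AT1G75900 (0.82 and 0.79), AT1G78210 (2.14 and 0.79), AT1G13340 (0.80 and 0.83) and AT3G28540 (0.80 and 0.97), whose smaller value was under 0.8 before rounding. A further probe set of the same gene was no member for GAT1_2.1 (0.79 and 0.40), AT1G31710 (0.65 and 0.72) and AT3G53670 (0.28 and -0.01).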

How the data were processed

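The authors deposited log2 expression values, 1 column an array, which were taken over without a floor or more scaling. How they were summarised from the scans is not given in the sources used here. Base 2 was inferred from the highest value, 13.86, which lies above 11.1, the natural log of the largest 16-bit intensity, and below 16, its log2. Array medians were 6.549 to 6.686. The 64 control probe sets were left out. Of 22746 others, 13513 had 1 gene in the platform annotation, 503 several and 8730 none, and 13436 of the first were matched to RefSeq for names and neighbours. Where a listed gene had several probe sets, the member was used if there was one, and otherwise the brightest.

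With limma 3.58.1 under R 4.3.3, 1 model with a mean per group covered the 18 arrays of all 6 groups (eBayes with trend, Benjamini-Hochberg adjustment over all 22746, threshold 0.05). The fit was tested on simulated data. Precision is limited by 3 arrays a group, whose median SD was 0.124 to 0.174. An exact permutation test of 3 against 3 cannot go below 0.1. Members and lists were chosen with earlier results of these data known. Among members with 1 gene, those named were the 16 with the largest smaller root difference, the 8 highest and 8 lowest in day 11 minus osmotic roots, up to 6 past the threshold in each leaf direction, 4 with the smallest leaf change, 4 on each side of the rule, listed genes and neighbours. Lists with 0 measured genes (compatible solutes, suberin, jasmonate synthesis, aquaporins) gave nothing. The measured gene of abscisic acid metabolism, XERICO, fell in osmotic and day 11 roots (-0.63 and -0.61) and rose in osmotic leaves (0.92). Promoter sequences were not analysed here.

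Alternatives were median centring, quantile normalisation, leaf arrays alone, no trend, array weights, a filter on dim probe sets, a replicate block, other rule thresholds and each array left out.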

Additional observations from a re-analysis of the deposited data

Results flagged for a closer look

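In several members all 3 leaf arrays moved opposite to all 3 root arrays, relative to the mock arrays of each organ. The share of all probe sets with such an order in leaves is not given here, so the list is a description. By limma 12.0% of all probe sets were lower than mock in osmotic leaves and 0.369% in day 11 leaves, against 3 and 0 of the 232 members. The difference between organs was not tested, because the rule had chosen the members on the root arrays. Under mannitol the leaf differences of these genes were -1.08 in AT2G44940, -0.86 in AT5G49100, -0.73 in AT2G18360, -0.66 in AT1G04800, -0.44 in GSTU18, -0.24 in AT1G68850 and -0.22 in AT2G48090, while their root differences were positive by the rule. At day 11 the leaf difference was -0.31 in AT5G44050 and -0.28 in AT1G04800. In the limma fit of leaves only AT2G44940, AT5G49100 and AT1G04800 passed the adjusted threshold, all under mannitol. In mock leaves the levels of AT1G68850 lay between 3.60 and 3.83, below the lower quartile of all values.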

How the results depend on the processing

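The rule found 236 probe sets after quantile normalisation, 268 after median centring, 299 at a threshold of 0.7, 145 at 1 and 217 to 278 with 1 array left out, and 148 members were found under every left-out root array. In osmotic leaves the count of higher members was 64 to 92 with 1 array left out, and the 3 lower members became 5 with leaf arrays alone and 1 to 4 with 1 array left out. At day 11 the 7 higher members became 4 with leaf arrays alone, 30 with array weights, 13 with a replicate block and 3 to 10 with 1 array left out. Between osmotic and day 11 leaves 39 to 64 members were lower and 1 to 4 higher with 1 array left out. Whether same-numbered arrays were paired was not settled: correlations of their deviations were mixed, -0.289 to 0.346, 8 of 18 above 0.1. With the block 86 members were higher in osmotic leaves, 3 lower, and 55 lower and 4 higher at day 11 than under mannitol. For named genes and list genes, 5562 values were recomputed: 5395 kept direction and call, 113 lost the call, 53 gained it, 0 reversed and 1 moved (AT4G22610 in osmotic roots, 4.89 after median centring). Among gains, AT4G23680 (0.02), AT4G23670 (0.042) and AT3G26460 (0.011) passed in osmotic leaves with leaf arrays alone (adjusted p, limma). The causes were not tested. Values below the lower quartile of the arrays limit what can be said of dim members.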
